A study of Mus musculus with 16 samples.

Results

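Tardbp encodes TDP-43, the RNA-binding protein that the study removed from CD8+ T cells with Cas9, and its own RNA is the subject here. The members are every annotated transcript of the gene, 30 of the 141862 in the deposited transcript table, and all 15 regions listed under the symbol Tardbp among the 125520 regions of the deposited splicing table. The rule uses the gene's identity and no measured value. Of the 30 transcripts, 26 had a count in at least 1 library, 15 are annotated as protein coding and 10 as targets of nonsense-mediated decay. The gene (ENSMUSG00000041459.15) lies on the minus strand of GRCm38 at chr4:148612382-148627019.

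TDP-43 binds UG-rich RNA and takes part in splicing, in the choice of poly(A) site and in RNA stability. It also limits its own level: bound to the long 3′ UTR of its own RNA, it promotes removal of an intron in that UTR and a switch of poly(A) site, and RNA processed this way is kept in the nucleus or degraded. A second set of splices within the last coding exon removes the usual stop codon and replaces the glycine-rich C-terminal region, giving short isoforms.

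All cells were CD8+ T cells of OT-I Tg C57BL/6J mice, whose transgenic receptor recognises the ovalbumin peptide SIINFEKL. The study's methods describe OT-I donors as deficient in Rag1 or Rag2, and donor age and background are not given per library. Both groups, 8 libraries each, received Cas9 by electroporation, with a scrambled guide in Control gRNA and a guide to Tardbp in Tardbp gRNA. Both were then transferred into C57BL/6J recipients given peptide together with agonist antibodies to OX40 and 4-1BB, and donor cells were sorted from spleen and lymph nodes after 4 days by the labels (somewhat earlier by the methods). The electroporated cells are a mixed population and not a clone, so a library can hold edited and unedited alleles. The study's results text describes cells purified from 8 individual recipients and then put to stimulation and RNA sequencing. The labels do not tie a library to one animal, and p-values measure the spread between these libraries. In bulk RNA, fewer cells with a transcript and less of it per cell cannot be told apart.

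The 8 control libraries held 73649630 to 93893357 counts in annotated genes, and the 8 with the Tardbp guide held 56016533 to 94801105. The RNA concentration recorded before library preparation, which has no unit, was 34.9 to 197.1 for the control libraries and 10.1 to 24.0 for the others, so it did not overlap and cannot be told apart from the guide. The summed CPM (counts scaled to library size) of 6 CD8 T cell markers was 3408 to 4271 with the control guide and 5211 to 6697 with the Tardbp guide, and all 6 were called higher. Markers of CD4 T cells (2 genes, at most 0.930 CPM summed) and B cells (3 genes, at most 6.55) were low in both groups and 0 of these 5 were called. Of 3 myeloid markers 1 was called (summed 14.3 to 33.9 and 18.6 to 77.7 CPM), and of 3 red cell precursor markers 2 were called (0.187 to 10.8 and 6.17 to 110.3). The part of these shifts in the Tardbp values was not tested.

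Tardbp transcripts differ mainly at the 3′ end. Tardbp-202 is the full-length form of 414 codons, in which a single last exon of 6410 bases (chr4:148612382-148618791) holds the stop codon at chr4:148618261-148618263 and the whole 3′ UTR. In 20 of the 30 transcripts an intron over that stop codon is removed. In most of them it starts at 1 of 3 donors, 9 and 18 bases apart, and ends at 1 of 3 acceptors, and the complete short reading frames have 285 to 304 codons. Tardbp-204, of 295 codons, uses donor 1 and acceptor 2, keeps the 3′ UTR intron and stops at the proximal poly(A) end. Tardbp-230, of 285 codons and annotated for nonsense-mediated decay, uses donor 1 and acceptor 1, also loses the 3′ UTR intron of 721 bases (chr4:148616845-148617565), and stops within a base of the same end. Of the sites that set these forms apart, 6 are printed below from the GENCODE M21 transcripts, 5′ to 3′ on the minus strand, with the first or last pair of intron bases in capitals.
Donor 3 (chr4:148618637-148618656): gggaatcaggGTgggtttgg
Acceptor 1 (chr4:148617821-148617845): cctatgaattttttccttAGgaaaa
Acceptor 2 (chr4:148617701-148617725): ccttcatttaatctctgcAGttcat
Acceptor 3 (chr4:148617631-148617655): ctgtaaatattctgccatAGgaata
3′ UTR intron donor (chr4:148617556-148617575): gtctttgacgGTgggtgttc
3′ UTR intron acceptor (chr4:148616840-148616864): tatgtgtctttgttttgcAGccctg

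**Figure D1:**
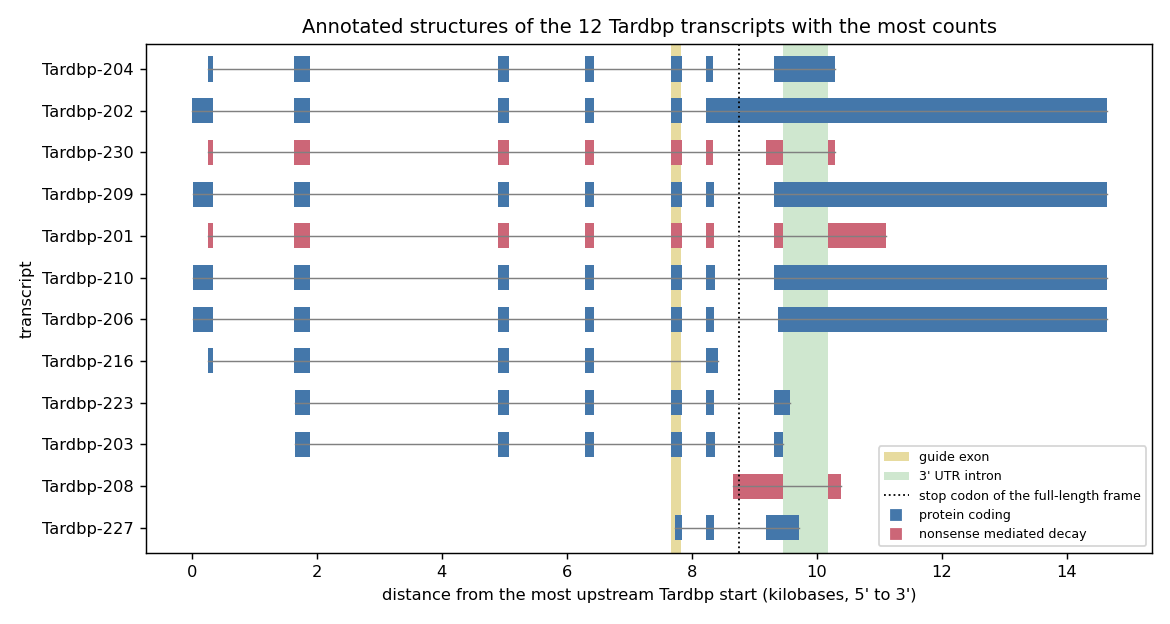
Exons (boxes) and introns (lines) of the 12 Tardbp transcripts with the most counts, against distance in kilobases from the most upstream start. The yellow band is the guide exon, the green band the 3′ UTR intron and the dotted line the full-length stop codon. Blue transcripts are annotated as protein coding and red ones as nonsense-mediated decay. Only Tardbp-216 splices past the guide exon (Tardbp-208 starts downstream of it), and the red transcripts lack the green band.

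The 2 main 3′ ends are shown because the classes described further on turn on them. The proximal end carries the canonical poly(A) hexamer, in capitals in the last 30 bases of Tardbp-204, beginning 21 bases before the end. The distal end carries a common variant hexamer, 25 bases before the end of Tardbp-202.
Proximal end (chr4:148616726-148616755): tttgcttcaAATAAActtatttgaaaagtt
Distal end (chr4:148612382-148612411): gttaaATTAAAccatttggaatatattgtg
The letters TGTGTG, a simple UG repeat searched on the transcribed strand only and with overlapping matches counted, occurred 6 times in the last exon of Tardbp-202. Of these, 2 lay in the 3′ UTR intron, the first starting at base 110 and the last ending at base 432 of it, 4 lay beyond the proximal end, and 0 lay in the intron over the stop codon. Of 46994 windows of 721 bases taken from the 3′ ends of protein-coding transcripts, 33.7% hold these letters. A match is a description of the sequence and not of binding. The distal 3118 bases are shared with Masp2 on the opposite strand, and the library kit does not mark strand, but Masp2 was at 0 in 14 of 16 libraries and reached 13 counts at most.

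Tardbp RNA fell in the cells given the Tardbp guide. Its level was 172, 198 and 207 CPM (lowest, median, highest) in Control gRNA and 110, 136 and 147 CPM in Tardbp gRNA, with no overlap between the groups, as for 16.9% of all genes tested. The means were 192 ± 13.3 and 135 ± 11.3 CPM (SD, n = 8 each), so 70.1% of the control mean remained. The log2 fold change was -0.51 (SE 0.0558, adjusted p = 8.07e-07 by edgeR's quasi-likelihood test). This call is one among many, since 46.7% of 16650 genes were called, 23.3% lower and 23.5% higher. With the RNA concentration as a covariate the value was -0.50 (adjusted p = 0.00866).

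The guide given in the study's methods lies in a coding exon of 171 bases, chr4:148619184-148619354. Tardbp-216 is the only annotated transcript that skips it, and the 2 joins are printed with the next exon in capitals.
Guide exon held (Tardbp-204): cccaactctaagCAAAGCCCAGAC
Guide exon skipped (Tardbp-216): cccaactctaagGTTGCCCAGTCT
Tardbp-216 had no count in any Control gRNA library and 4.8, 8.12 and 18.9 CPM (lowest, median, highest) in Tardbp gRNA, highest in libraries 5 and 6. Its mean in Tardbp gRNA, 10.25 CPM, was 275.8 times the mean control floor of 0.0372 CPM. That floor was set at 3 counts per library, so the ratio rests on this choice. The transcript passed the filter on low counts only through Tardbp gRNA, so its call was fixed by the filter and no p is given. Its annotation stops at position 148618605, before the full-length stop codon. No annotated transcript that skips the guide exon reaches the 3′ UTR, so reads from such RNA beyond that point can be counted only in other transcripts.

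Of the 30 transcripts, 16 passed the filter on low counts and 6 of those were called, or 5 of 15 without Tardbp-216. Of all 40897 transcripts tested, 16.6% were called. Lower were Tardbp-204, Tardbp-230, Tardbp-226 and Tardbp-208 (8.14% of all transcripts were called lower), and higher were Tardbp-216 and Tardbp-227 (8.50%). Tardbp-216 and Tardbp-226 had groups that did not overlap, as did 5.77% of all transcripts tested. The median log2 fold change was -0.39 over the 16 and 0.06 over all transcripts.

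The full-length transcript did not pass the test. Tardbp-202 had 38.9, 47.2 and 72.8 CPM in Control gRNA and 26.1, 45.8 and 120.6 CPM in Tardbp gRNA, where library 2 held the highest value and library 3 the lowest. The medians lay close together and the spread was wider with the Tardbp guide (log2 fold change 0.16, SE 0.267, adjusted p = 0.759, edgeR). Its mean was 52.2 ± 12.6 CPM in Control gRNA and 58.4 ± 31.0 in Tardbp gRNA (SD, n = 8 each).

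The short isoform Tardbp-204, which had the highest counts in most control libraries, was lower. It had 58.6, 83.7 and 97.8 CPM in Control gRNA and 6.23, 29.2 and 75.3 CPM in Tardbp gRNA. Only library 1 of Tardbp gRNA lay within the control range. The log2 fold change was -1.32 (SE 0.40, adjusted p = 0.0318, edgeR). The call held without 11 of the 16 libraries and was lost without the other 5, with log2 fold changes of -1.28 to -1.25: the adjusted p was 0.0548, 0.0529 and 0.0561 without control libraries 3, 4 and 7, and 0.0614 and 0.0607 without Tardbp gRNA libraries 4 and 5. With the RNA concentration as a covariate the value was -0.85 (adjusted p = 0.731).

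Transcripts annotated for nonsense-mediated decay made up 3 of the 4 that were lower. Tardbp-230 had 10.6, 21.2 and 41.0 CPM in Control gRNA and 2.97, 7.53 and 11.3 CPM in Tardbp gRNA. The groups overlapped only through control library 8, the lowest of its group, which lay below Tardbp gRNA libraries 1 and 5. The log2 fold change was -1.67 (SE 0.324, adjusted p = 0.00185, edgeR), and the call held without each library in turn (adjusted p 0.00108 to 0.00490). With the RNA concentration as a covariate the value was -0.29 (adjusted p = 0.921), and with libraries 4 to 8 alone it was -1.66 (adjusted p = 0.0188).
Tardbp-226, a partial transcript with the same 3′ UTR splice and the junction of donor 1 with acceptor 2, had 0.463, 0.718 and 0.966 CPM in Control gRNA and 0.0355, 0.123 and 0.383 in Tardbp gRNA. The groups did not overlap (log2 fold change -1.84, SE 0.394, adjusted p = 0.00378, edgeR), and this call too held without each library in turn. Tardbp-208, a partial transcript that also lacks the 3′ UTR intron but leaves the stop codon region unspliced, had 0.0903, 0.499 and 4.31 CPM in Control gRNA and 0.0888, 0.232 and 0.811 in Tardbp gRNA. Its log2 fold change was -2.18 (SE 0.724, adjusted p = 0.0496, edgeR), and leaving out any of 11 single libraries ended the call (adjusted p 0.0502 to 0.126; these were control libraries 3, 5, 7 and 8 and Tardbp gRNA libraries 1 to 5, 7 and 8).
Tardbp-227, a short protein-coding fragment that runs into the 3′ UTR intron, was higher, with 0.0809, 0.257 and 0.397 CPM in Control gRNA and 0.216, 0.408 and 3.58 in Tardbp gRNA. The log2 fold change was 1.81 (SE 0.556, adjusted p = 0.0343, edgeR) and 0.97 without Tardbp gRNA library 6, which held the highest value. Leaving out that library, Tardbp gRNA library 4, or control library 1, 2, 4, 5 or 6 ended the call (adjusted p 0.0532 to 0.0989).

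**Figure D2:**
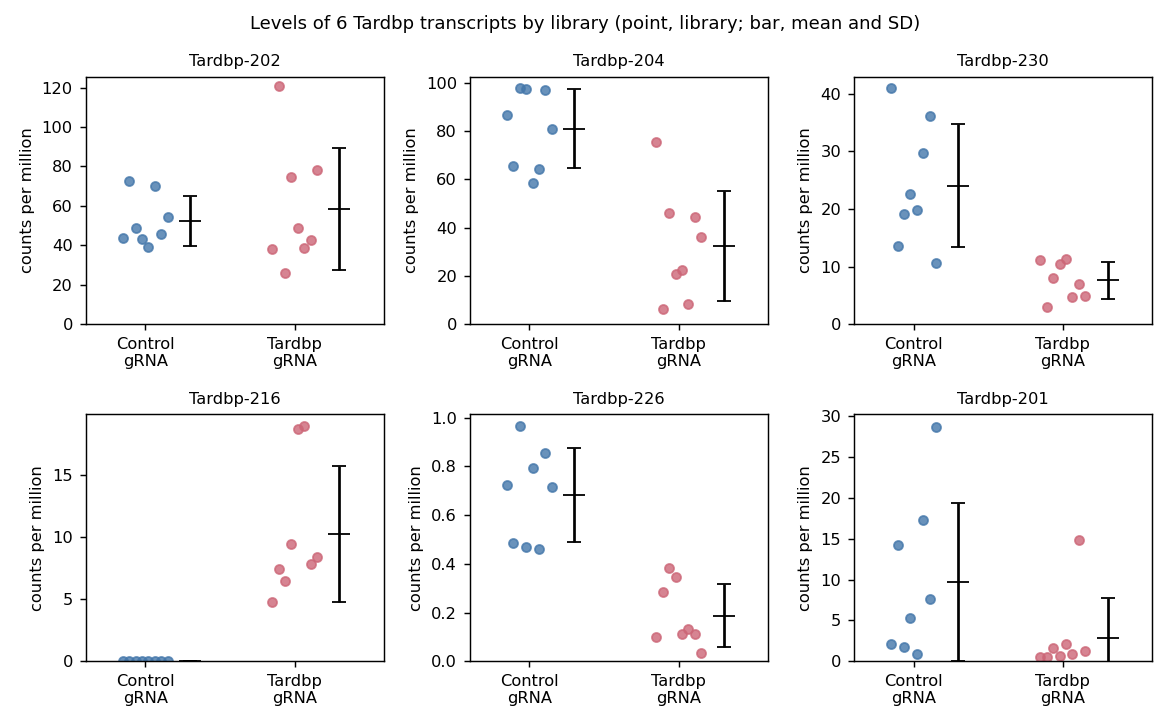
Level in CPM of 6 Tardbp transcripts in each library, with 1 point per library (8 per group) and the mean and SD beside them, on linear axes that start at 0. Tardbp-204, Tardbp-230 and Tardbp-226 were lower with the Tardbp guide, Tardbp-216 had counts only there, and Tardbp-202 and Tardbp-201 did not pass the test.

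The other 10 tested transcripts were not called. Among them was Tardbp-201, another decay-annotated form without the 3′ UTR intron, at 0.872, 6.45 and 28.6 CPM in Control gRNA and 0.506, 1.08 and 14.9 CPM in Tardbp gRNA (log2 fold change -1.79, adjusted p = 0.177, edgeR). Tardbp gRNA library 7 alone held the value of 14.9, and without it the log2 fold change was -3.15 (adjusted p = 0.00658). Tardbp-207, a partial decay-annotated transcript that also lacks the 3′ UTR intron, had 0.0483, 0.323 and 0.811 CPM in Control gRNA. In Tardbp gRNA it had 0.0355, 0.362 and 0.463 CPM (log2 fold change -0.32, adjusted p = 0.754, edgeR). The distal-end short isoforms Tardbp-206, Tardbp-209 and Tardbp-210 spanned 0.958 to 44.6 CPM with the control guide and 0 to 34.5 CPM with the Tardbp guide, with single libraries far above the rest. The 14 transcripts that did not pass the filter on low counts were at 2.33 CPM or less in every library.

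The makeup of the gene's counts varied widely between libraries. The share of counts in Tardbp-202 was 20, 23.5 and 42.1% in Control gRNA and 24.7, 34.1 and 83.8% in Tardbp gRNA, and that in Tardbp-204 was 30.5, 41.5 and 50.2% and 4.33, 21.7 and 52.6%. The count of Tardbp-204 per count of Tardbp-202 was 0.898, 1.74 and 2.24 in Control gRNA and 0.0516, 0.461 and 1.98 in Tardbp gRNA. Divided by annotated length, the 2 transcripts stood at a ratio of 3.52, 6.84 and 8.81 in Control gRNA and 0.203, 1.81 and 7.79 in Tardbp gRNA. Per length, then, Tardbp-204 was above Tardbp-202 in every control library, and in Tardbp gRNA it was below it only in libraries 2 and 6.

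In limma's test of each transcript's share, 0 of the 16 Tardbp transcripts were called at both limits (adjusted p and a difference over 10 percentage points), against 0.630% of 32701 transcripts. An unadjusted p under 0.05 was found for 4 of the 16 and for 5613 of all 32701. Among the 4 was Tardbp-216, whose outcome was fixed by the filter on low counts. The difference was 16.31 percentage points for Tardbp-202 (SE 7.74, adjusted p = 0.30, and 10.48 points without Tardbp gRNA library 2), -16.48 for Tardbp-204 (SE 6.56, adjusted p = 0.20) and -6.27 for Tardbp-230 (SE 1.79, adjusted p = 0.0647). The share of Tardbp-216 differed by 7.68 points, from a control share of 0 in every library. With length-divided counts 2 transcripts were called by limma, where 394 of all 32701 were called. One was Tardbp-230 (-10.53 points, adjusted p = 0.0404, limma). The other was Tardbp-216, whose call was fixed by the filter on low counts.

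**Figure D3:**
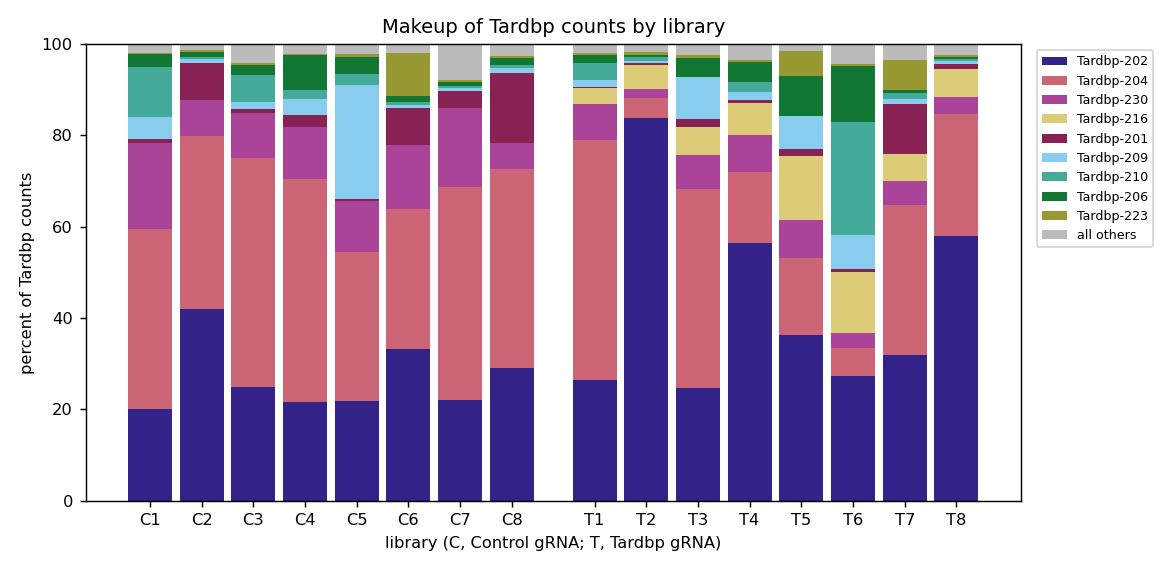
Stacked bars of the percent of Tardbp counts held by each transcript in each library (C1 to C8, Control gRNA; T1 to T8, Tardbp gRNA), with the remaining transcripts summed in grey. Tardbp-202 takes 83.8% in T2 and Tardbp-210 is large in T6, while the yellow segment of Tardbp-216 appears in the T libraries only.

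Summed by annotated structure, RNA without the 3′ UTR intron and RNA ending at the proximal site took smaller shares with the Tardbp guide. Shares were compared between groups by an exact two-sided permutation test, with p-values adjusted over 18 classes that overlap in their transcripts, and 9 of the 18 were called, among them the skipping of the guide exon, which is 0 in every control library. The smallest p the design allows is 0.000155. Transcripts without the 3′ UTR intron held 12.9, 18.9 and 24.0% of counts in Control gRNA and 3.28, 9.10 and 16.8% in Tardbp gRNA. The mean difference was -10.09 percentage points (adjusted p = 0.00769, exact test), and in Tardbp gRNA only library 7 lay within the control range. Among transcripts that span the intron, the share without it was 13.0, 19.1 and 25.6% and 3.52, 9.88 and 19.9% (difference -9.53, p = 0.00357, exact test). Per length, the share of all Tardbp RNA was 26.2, 31.0 and 37.5% and 9.70, 15.6 and 21.1%, with no overlap (difference -16.04, adjusted p = 0.000559, exact test). With the skipping transcript also left out, a setting chosen after seeing the data, it differed by -11.29 points (adjusted p = 0.00528, exact test).
Transcripts annotated to keep the 3′ UTR intron held 66.4, 80.0 and 85.7% in Control gRNA and 67.8, 81.0 and 89.9% in Tardbp gRNA. That difference of 1.47 points did not pass the test (adjusted p = 0.748, exact test). The classes without and with the intron do not add to the whole, because Tardbp-216 and other transcripts end before it or cover it in part.
Transcripts annotated for nonsense-mediated decay, most of which are those without the 3′ UTR intron, held 12.8, 18.8 and 23.9% in Control gRNA and 3.28, 9.06 and 18.5% in Tardbp gRNA (difference -9.81 points, adjusted p = 0.00769, exact test). The protein-coding share, which counts Tardbp-216, was higher by 9.81 points. With Tardbp-216 left out of all counts, it was higher by 9.09 points (adjusted p = 0.0194, exact test). With libraries 4 to 8 alone the adjusted p was 0.0571 for the loss of the 3′ UTR intron and for both of these biotypes.

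The splice over the stop codon, which makes the short isoforms, followed the same direction. It was removed in 57.6, 74.1 and 79.7% of counts in Control gRNA and in 10.8, 53.9 and 69.6% in Tardbp gRNA (difference -23.69 points, adjusted p = 0.0140, exact test), lowest in library 2. Of the donors, donor 1 fell, with 44.4, 54.1 and 64.5% of counts in Control gRNA and 6.59, 27.8 and 60.5% in Tardbp gRNA (difference -22.88 points, adjusted p = 0.0199, exact test). Donor 2 and donor 3 differed by -1.66 and 0.87 points (adjusted p = 0.748 and 0.908, exact test). Tardbp-216 ends before the stop codon and adds only to the total of counts. With it left out, the splice over the stop codon differed by -19.53 points (adjusted p = 0.0396, exact test). Donor 1 then differed by -20.68 points (adjusted p = 0.0389, exact test).
Of the acceptors, acceptor 2 fell by 19.29 points (adjusted p = 0.0218, exact test) and acceptor 1 fell by 5.65 points (adjusted p = 0.0196). Acceptor 3 differed by 1.49 points (adjusted p = 0.537). With length-divided counts and the skipping transcript left out, acceptor 1 and acceptor 2 did not pass the test (-3.36 and -11.58 points, adjusted p = 0.404 and 0.182, exact test). Transcripts with the stop codon region unspliced held 20.2, 25.5 and 42.3% in Control gRNA and 25.2, 35.1 and 83.9% in Tardbp gRNA. That difference of 16.01 points (10.25 without Tardbp gRNA library 2) had an adjusted p of 0.0857, and of 0.0396 with the skipping transcript left out (exact test).

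The annotated ends overlap in their members with these splices, and Tardbp-204, Tardbp-226 and Tardbp-230, which use donor 1, all stop at the proximal end or within 10 bases of it. The proximal end held 45.1, 55.1 and 67.0% of counts in Control gRNA and 7.21, 28.0 and 61.0% in Tardbp gRNA (difference -23.55 points, adjusted p = 0.0199, exact test). The distal end held 24.0, 35.4 and 53.0% and 33.4, 56.0 and 85.6%, a difference of 17.86 points that did not pass over the classes (p = 0.0284, adjusted p = 0.0512, exact test). With the skipping transcript left out the adjusted p of the distal end was 0.0389 (exact test). The proximal end then differed by -21.31 points (adjusted p = 0.0389, exact test). Ends between these sites differed by -2.94 points and ends before the proximal site by 0.72 points (adjusted p = 0.314 and 0.748).

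**Figure D4:**
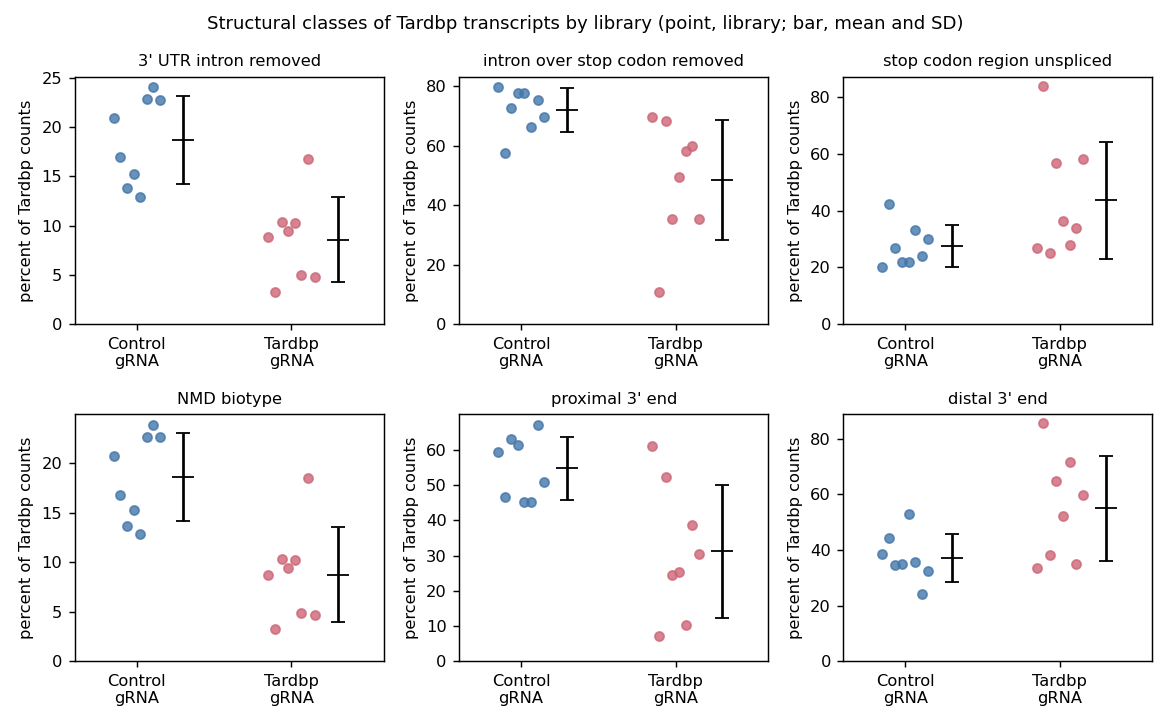
Percent of Tardbp counts in 6 structural classes, with 1 point per library (8 per group), mean and SD, on linear axes that start at 0. Loss of the 3′ UTR intron, splicing over the stop codon, the decay biotype and the proximal end were called lower with the Tardbp guide. The other panels did not pass the test, and the groups overlap in all 6 panels.

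The splicing table gives 1 percent-spliced-in (Psi) value per group, made from raw reads and not from the transcript counts, so its values have no replicate error and no test. Of the 15 Tardbp regions, 3 differed by over 0.1 between the groups, against 4.70% of all regions. The guide exon (node 8) went from 0.999 to 0.831, and among core exons 0.932% differed by over 0.1. The other 3 core exons (nodes 6, 7 and 9) stood at 0.999 in Control gRNA and at 0.998, 0.990 and 0.962 in Tardbp gRNA.
Alternative starts made up the other changes of that size. The most upstream start (node 1, chr4:148626997-148627019) had 0.559 in Control gRNA and 0.390 in Tardbp gRNA, the next (node 2, chr4:148626759-148626996) 0.232 and 0.392, and the third (node 3) 0.219 and 0.235. Among all alternative starts, 20.4% differed by over 0.1.

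At the 3′ end the Psi values lay closer together. The region from donor 3 to acceptor 2 read as retained intron (node 12, chr4:148617706-148618646) had 0.517 in Control gRNA and 0.568 in Tardbp gRNA. The 9 bases between donors 1 and 2 (node 10) had 0.709 and 0.660, and the 18 bases between donors 2 and 3 (node 11) 0.536 and 0.578. The 70 bases between acceptors 2 and 3 (node 13) had 0.930 and 0.936. Of all alternative donors, alternative acceptors and retained introns together, 9.53% differed by over 0.1.
Of the 4 alternative ends, where 21.5% differ by over 0.1, the end at the 3′ UTR intron donor (node 14) had 0.000431 and 0.0449 and the next (node 15) 0.453 and 0.393. The proximal end (node 16, chr4:148616726-148617450) had 0.540 and 0.558 and the distal end (node 17, chr4:148612382-148616725) 0.00780 and 0.00495. No listed region is the 3′ UTR intron itself, so Psi does not give its removal.

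**Figure D5:**
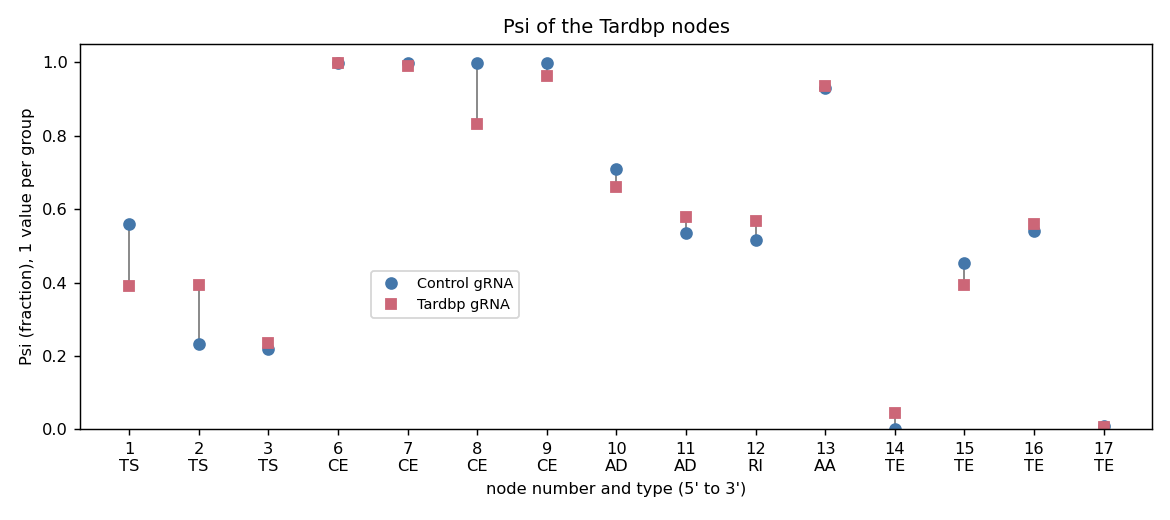
Psi of the 15 Tardbp regions in 5′ to 3′ order, as the 1 deposited value per group (circles, Control gRNA; squares, Tardbp gRNA), joined by a line. TS is an alternative start, CE a core exon, AD and AA alternative donors and acceptors, RI a retained intron and TE an alternative end. The longest lines are at nodes 1, 2 and 8.

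To give each region a value per library, a fraction for it was rebuilt from length-divided transcript counts. The levels often differed from Psi. In Control gRNA, Psi and the rebuilt mean were 0.559 and 0.0946 at node 1 and 0.536 and 0.115 at node 11. They were 0.517 and 0.112 at node 12 and 0.00780 and 0.435 at node 17, but 0.540 and 0.514 at node 16. The tests below are therefore tests of the rebuilt values and not of Psi. Of 13 regions that varied, 4 were called (exact test, adjusted over the 13). These were the guide exon and the 3 regions over the stop codon. The call of the guide exon was fixed, because only Tardbp-216 skips it and had no count in Control gRNA. The guide exon was held by all RNA in Control gRNA and by 0.523, 0.764 and 0.907 of it in Tardbp gRNA. Node 10 had 0.178, 0.238 and 0.404 and 0.247, 0.562 and 0.847 (adjusted p = 0.00741, exact test), node 11 had 0.0798, 0.107 and 0.163 and 0.191, 0.475 and 0.737 (adjusted p = 0.00101), and node 12 had 0.0845, 0.104 and 0.180 and 0.106, 0.227 and 0.729 (adjusted p = 0.0318).
Tardbp-216 holds nodes 10 and 11. With it left out, 0 of 12 regions were called by the exact test (5 at an unadjusted p under 0.05). Nodes 10 and 11 then differed by 0.202 and 0.158 (adjusted p = 0.0630 and 0.0622, exact test). Node 12 differed by 0.168 with and without Tardbp-216 (p = 0.00979, exact test), and its adjusted p became 0.0587 only because fewer of the compared regions had smaller p-values. With counts not divided by length, rebuilt node 12 had an adjusted p of 0.0949 (exact test). The rebuilt difference had the same sign as the Psi difference in 5 of the 13 regions. The signs were opposite at nodes 1, 2, 3, 10, 13, 15, 16 and 17. At the ends, the rebuilt difference was -0.0893 for the proximal node 16 and 0.0603 for the distal node 17 (adjusted p = 0.404 and 0.479, exact test), while their Psi went slightly up and down. The fall of the proximal end in the class shares thus has no matching fall in Psi. Tardbp-207, Tardbp-208, Tardbp-226, Tardbp-229 and Tardbp-230 end 1 base or more beyond node 16 and are counted in node 17 here. Their ends belong to the proximal class. Rebuilt node 17 therefore mixes proximal and distal ends, and its difference is not that of the distal class. For node 1 the rebuilt values were 0.0650, 0.0858 and 0.156 in Control gRNA and 0.0781, 0.116 and 0.512 in Tardbp gRNA (adjusted p = 0.190, exact test). At node 11, between donors 2 and 3, both were higher with the Tardbp guide.

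Proteins that work with TDP-43 or on the same steps of RNA processing were looked at in 3 gene lists. Of 16 RNA-binding partners, 14 were called, 12 lower and 2 higher (46.7% of all genes were called, 23.3% lower and 23.5% higher), with a median log2 fold change of -0.30 where that of all genes was 0.05. The largest falls were in Taf15, an RNA-binding protein of the nucleus (-0.81, 5.52 to 7.52 and 2.81 to 4.29 CPM), and G3bp1, a stress granule protein (-0.65, 942 to 1103 and 602 to 720 CPM). The 2 that rose were Atxn2 (0.32) and Tia1 (0.20), both also stress granule proteins. Adjusted p for these 4 was 3.49e-06, 8.63e-09, 0.0186 and 0.00835 by edgeR.
Of 15 genes of nonsense-mediated decay and the exon junction complex, 7 were called, 5 lower and 2 higher, with a median of -0.02. This share is that of all genes (46.7%) and is no result about the list. Upf1, the helicase of the pathway, fell by 0.55 on the log2 scale (37.4 to 78.5 and 24.7 to 52.9 CPM, adjusted p = 0.0189), and Smg8, which binds the kinase SMG1, fell by 0.37 (adjusted p = 6.39e-05). Upf3b, which links UPF proteins to the exon junction complex, rose by 0.29 (adjusted p = 0.000372), and the kinase Smg1 by 0.22 (adjusted p = 0.0327).
Of 18 genes of cleavage and polyadenylation, 12 were called, 11 lower and 1 higher (46.7% and 23.3% lower over all genes), with a median of -0.27. Sympk, a scaffold of the cleavage complex, fell by 0.70 (66.1 to 82.2 and 32.9 to 51.6 CPM, adjusted p = 3.60e-06), and Cpsf1, a subunit of the complex that reads the hexamer, fell by 0.62 (adjusted p = 2.83e-06). Pabpn1, the nuclear poly(A)-binding protein, rose by 0.44 (adjusted p = 0.0119).

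The genes most like Tardbp in level over the 16 libraries, by Pearson's r of log2 CPM among 8975 genes, were G3bp2 (0.981), Cdv3 (0.981), Las1l (0.979), Npm3 (0.976) and Vdac1 (0.975). With the group means taken out they were Amd1 (0.871), Cdv3 (0.869), G3bp2 (0.868), Med4 (0.866) and Sf3a3 (0.865). The first r spans both groups, which also differ in RNA concentration, and the values are a description over 16 points with no test.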

How the data were processed

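The authors aligned paired reads of SMART-Seq v4 libraries to mm10 with HISAT2 2.1.0, sorted them with SAMtools 1.9 and made estimated counts per transcript and gene with StringTie 2.1.0 (versions from the submitters' processing notes). The deposited estimated counts are whole numbers, and StringTie divides reads among overlapping transcripts by a model, so shares of similar transcripts are uncertain. The deposited Psi fractions came from Whippet (version not given in the sources used here), 1 value per group without read depth; which column is which group was read from the headings of the study's supplementary tables. The count of read pairs, RNA concentration and the letter M or F were taken from the deposited library records. The authors' difference and probability columns hold their comparison and were not used, nor were 10 columns of other samples. Lines without an annotated gene held 0.0836 to 0.132% of counts and were left out.

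Levels were tested with edgeR 4.0.16 (TMM, filterByExpr with minimum count 10, quasi-likelihood, Benjamini-Hochberg over the whole table, called at an adjusted p under 0.05), shares with limma 3.58.1, and class shares and rebuilt fractions with exact permutation tests over libraries in SciPy 1.17.1. CPM are TMM-scaled, and a prior count of 2 was used for log2 CPM. Alternatives used DESeq2 1.42.0 and the settings given in the closing section. Structures and sequences came from GENCODE M21 on GRCm38, and the sequences of donors 1 and 2 are not reported here. Named genes were Tardbp with all its transcripts and regions, the 5 most correlated genes by each measure with mean log2 CPM of at least 3, and up to 2 called genes each way per list. The fits were tested on simulated data. The members, lists and the division into libraries 1 to 3 and 4 to 8, which no label names, were chosen with earlier results of these data known. Same-numbered libraries correlated by -0.00480 to 0.160 after removal of group means, 2 of 8 over 0.1, so numbers were not taken as pairs.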

Additional observations from a re-analysis of the deposited data

Results flagged for a closer look

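In 68 groups of 8 values (the gene, the tested transcripts and the classes, by guide), 17 had a highest or lowest library whose gap to the next passed Dixon's critical value as a part of the group's range. Chance gives about 1 in 20 such groups, or 3.4 here, and the measures share libraries and transcripts. The gene itself was lowest in Tardbp gRNA library 3 at 110.4 CPM (others 129.8 to 147.2).

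Among transcripts in Control gRNA, the highest values stood apart for Tardbp-223 in library 6 (19.83 CPM, others up to 1.06), Tardbp-209 in library 5 (44.59, others up to 10.23), Tardbp-203 in library 7 (8.556, others up to 0.886), Tardbp-206 in library 4 (15.32, others up to 7.01) and Tardbp-210 in library 1 (23.97, others up to 11.38). In Tardbp gRNA they stood apart for Tardbp-211 in library 4 (1.293 CPM, others up to 0.543), Tardbp-203 in library 8 (2.255, others up to 0.801), Tardbp-227 in library 6 (3.582, others up to 1.03), Tardbp-201 in library 7 (14.87, others up to 2.13) and Tardbp-210 in library 6 (34.52, others up to 5.46).

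Among classes, donor 3 reached 24.89% of counts in Tardbp gRNA library 6 (others up to 4.13%) and acceptor 3 reached 7.779% in Control gRNA library 4 (others up to 3.95%). Ends between the proximal and distal sites reached 11.06% in Tardbp gRNA library 7 (others up to 1.58%), and ends before the proximal site 10.31% in Control gRNA library 6 (others up to 4.79%). In Tardbp gRNA library 7 the protein-coding share was 81.43% (others from 89.65%) and the share annotated for nonsense-mediated decay 18.54% (others up to 10.34%). The causes were not tested.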

How the results depend on the processing

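The fall of the Tardbp gene kept its direction and its call in every alternative run, with log2 fold changes of -0.56 to -0.50, and of -0.55 to -0.475 when 1 library was left out (adjusted p 4.85e-07 to 3.17e-06). The 6 called transcripts became 3 with no filter on low counts and 3 with the letter M or F as a covariate. They became 1 with the RNA concentration as a covariate (Tardbp-216, whose call was fixed by the filter). Over all transcripts, edgeR called 6805 of 40897 in the main setting. It called 5309 of 83707 with no filter, 6021 of 40897 with the letter and 548 of 40897 with the concentration. With libraries 1 to 3 alone 0 Tardbp transcripts were called. There edgeR called 0 of 42218 transcripts and 5070 had an unadjusted p under 0.05. Leaving out 1 library gave 3 to 6 (3 without Tardbp gRNA library 4). With replicate number as a block, 4 transcripts were called. Tardbp-208 and Tardbp-227 lost their calls (adjusted p = 0.199 and 0.176), no other call of a transcript, class or the gene was lost, and the list of nonsense-mediated decay had 6 calls in place of 7; the gene's value with the block was -0.51 (adjusted p 5.79e-05). The numbers are not known to pair the libraries.

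Shares at both limits went from 0 to 2 with length-divided counts (Tardbp-216 and Tardbp-230) and stayed at 0 when a library was left out. By adjusted p alone 1 share was called, that of Tardbp-216, whose call was fixed by the filter. Classes called were 9, and 9 to 11 without a library. Rebuilt regions called went from 4 to 0 without transcripts that skip the guide exon. Psi regions past the limit were 3 at 0.1, 5 at 0.05 and 0 at 0.2.

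Values that turned sign were those of uncalled members. Log2 fold changes did so for Tardbp-223 (0.91 with DESeq2, 0.32 with the replicate block, 0.34 with concentration, 0.12 with the letter, -0.89 to 1.63 without a library), Tardbp-209 (1.21 with concentration, -1.17 to 0.34), Tardbp-203 (0.96 with concentration), Tardbp-207 (0.14 with concentration, 0.75 in libraries 1 to 3), Tardbp-211 (0.0398 in libraries 1 to 3), Tardbp-202 (-0.58 with concentration, -0.0742 to 0.27), Tardbp-206 (-0.65 with the block, -0.78 in libraries 1 to 3, -0.50 to 0.50) and Tardbp-210 (1.63 with concentration, 1.74 in libraries 4 to 8, -1.83 to 0.74). Share differences in percentage points did so for Tardbp-209 (1.44 in libraries 1 to 3, -1.80 to 1.90 without a library), Tardbp-211 (-0.0143 in libraries 4 to 8, -0.0649 to 0.0564), Tardbp-207 (-0.0676 in libraries 4 to 8, -0.0163 with the letter), Tardbp-210 (-4.23 in libraries 1 to 3, -1.73 to 2.34), Tardbp-223 (-0.267 to 1.54) and Tardbp-203 (-0.539 to 0.115). Class differences did so for donor 2 (4.21 with length-divided counts and no skipping transcript, -3.25 to 0.585 without a library), donor 3 (-2.02 to 1.93) and the kept 3′ UTR intron (-10.84 with length-divided counts, -0.178 in libraries 4 to 8, -0.248 to 3.19), and rebuilt values did so for node 14 (-0.00172 with undivided counts) and node 2 (0.0198 without the skipping transcript). The causes were not tested, and the depth per region behind Psi is not known.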
